A study of Mus musculus with 2 samples.

Results

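The 8 genes described here, Agtr1a, Agtr1b, Kcnk3, Kcnk9, Cacna1h, Hsd3b6, Cyp11b2 and Dab2, are receptors, ion channels, enzymes and a marker of the zona glomerulosa, the outermost zone of the adrenal cortex. They were taken by symbol, 8 of the 32245 gene symbols counted, and not by a rule on their values. Earlier results of these data were known when they were chosen. Single cells were prepared from adrenal glands of female C57BL/6J mice with the genotype SF1-Cre+;Znrf3Fx/Fx, in which Cre driven by the SF1 promoter deletes floxed Znrf3 in steroid-producing cells; its product, a ubiquitin ligase, removes Wnt receptors from the cell surface. There was 1 library at 6 weeks, from 2 pooled adrenals, and 1 at 9 weeks, from 3 pooled adrenals. The study names 6 weeks as the stage of overgrowth and 9 weeks as the start of regression, and asks how the gland's immune cells differ between them. Both ages carry the same deletion, no group without it was used here, and each age is 1 sample, so every comparison is of these 2 libraries and has no replicate check.

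Angiotensin II binds type 1 receptors on glomerulosa cells, which act through Gq to release calcium and to close background potassium channels. The resulting depolarisation opens voltage-gated calcium channels, and calcium signals raise the transcription of aldosterone synthase, the enzyme of the last steps to aldosterone. The inner zona fasciculata lacks that enzyme and makes corticosterone with the closely related Cyp11b1.

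After filtering, 8120 barcodes with a median of 11344 UMIs (unique molecular identifiers, each 1 counted RNA molecule) remained at 6 weeks and 9943 with a median of 7032 at 9 weeks. Clusters named cortical from 9 marker genes of steroid-producing cells, such as Star and Cyp11a1, gave 4288 cortical barcodes at 6 weeks, with a median of 15522.5 UMIs, and 2098 at 9 weeks, with a median of 14758. The 8 genes were kept out of the clustering, and all 9 markers passed in each of the 5 main cortical clusters. Znrf3 UMIs stood at 44.9 CPM (UMIs of the gene per 1000000 UMIs of the cortical barcodes, with a 95% interval of 43.3 to 46.5) in cortical barcodes at 6 weeks and at 54.0 (51.4 to 56.6) at 9 weeks; 3′ counts do not show whether the floxed part is missing. The libraries shared 29 barcode sequences, of which 20 were cortical barcodes at 6 weeks and 9 at 9 weeks, and leaving these out kept all 8 genes on the same side of the fold threshold. All intervals here, exact Poisson for CPM and Clopper-Pearson for shares, cover counting error only. Clusters were rebuilt here, and these names, not the study's own, may account for a difference from it.

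Of the 8 genes, 3 had a promoter entry in the RefSeq table on GRCm38.p6, which spans 250 bases before to 50 after each start. The 2 promoters printed here belong to the receptor Agtr1b and the enzyme Hsd3b6, because the cortical UMIs of both genes came almost wholly from the same pair of clusters (98.7% and 99.5% at 6 weeks, 99.3% for both at 9 weeks). The Agtr1b window is chr3:20367128-20367427 on the minus strand, with the sequence TATAAA in capitals, 31 bases before the start. The Hsd3b6 window is chr3:98814394-98814693, also minus, and its capitals mark TCAAAG, which reads CTTTGA on the opposite strand, a core letter sequence of Tcf/Lef factors, 107 bases before the start.
Agtr1b: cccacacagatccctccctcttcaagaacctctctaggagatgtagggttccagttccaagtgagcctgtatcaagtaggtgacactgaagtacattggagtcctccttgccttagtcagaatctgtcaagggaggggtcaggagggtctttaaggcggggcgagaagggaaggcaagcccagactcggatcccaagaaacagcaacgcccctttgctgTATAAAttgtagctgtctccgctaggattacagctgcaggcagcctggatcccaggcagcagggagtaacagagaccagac
Hsd3b6: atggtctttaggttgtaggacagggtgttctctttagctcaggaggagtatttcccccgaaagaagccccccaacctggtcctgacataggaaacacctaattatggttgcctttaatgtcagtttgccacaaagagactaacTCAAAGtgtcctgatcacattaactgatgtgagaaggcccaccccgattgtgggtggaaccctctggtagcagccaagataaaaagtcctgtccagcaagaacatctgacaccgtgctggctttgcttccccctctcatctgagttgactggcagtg
Both strands were searched for the motifs AAGGTCA (a site of SF-1), AAAGGTCA (a site of Nr4a factors, which overlaps the former), TGACGTCA and its part TGACG (sites of CREB-type factors), CTTTGA and TATAAA. Over all 32851 promoters in the table, TATAAA was found in 13.6%, CTTTGA in 16.0%, TGACG in 20.8%, AAGGTCA in 4.72%, TGACGTCA in 1.79% and AAAGGTCA in 1.51%. The windows of Dab2, at its 2 entries, held none of these letter sequences. A match describes letters in the window only.

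Within the cortex, the genes' UMIs were concentrated in clusters 3 and 4 of the 5 cortical clusters with at least 50 barcodes at each age (1, 3, 4, 5 and 8). Cluster 4 was led by Ecrg4, Ly6d, Cpe and Wnt4, a Wnt ligand of the outer cortex, and cluster 3 by Ly6d, Ptn and Igfbp7. Clusters 1, 5 and 8 were led by genes such as Akr1d1, Cyp2f2, Mgat4c and Cyp11b1. Clusters 3 and 4 together held 1053 of 4288 cortical barcodes at 6 weeks (24.6%, 23.3 to 25.9) and 1336 of 2098 at 9 weeks (63.7%, 61.6 to 65.7). The same clusters held between 63.3% (Kcnk3) and 99.5% (Hsd3b6) of each gene's cortical UMIs at 6 weeks, and between 84.2% (Kcnk3) and 99.3% (Agtr1b and Hsd3b6) at 9 weeks. The plot of levels by cortical cluster shows a step between clusters 3 and 4 and the others for 7 of the genes. For Cyp11b2 the step lay at cluster 4, since cluster 3 at 9 weeks (4.25 CPM, 3.02 to 5.80) overlapped cluster 5 (2.23, 1.32 to 3.53).

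**Figure D1:**
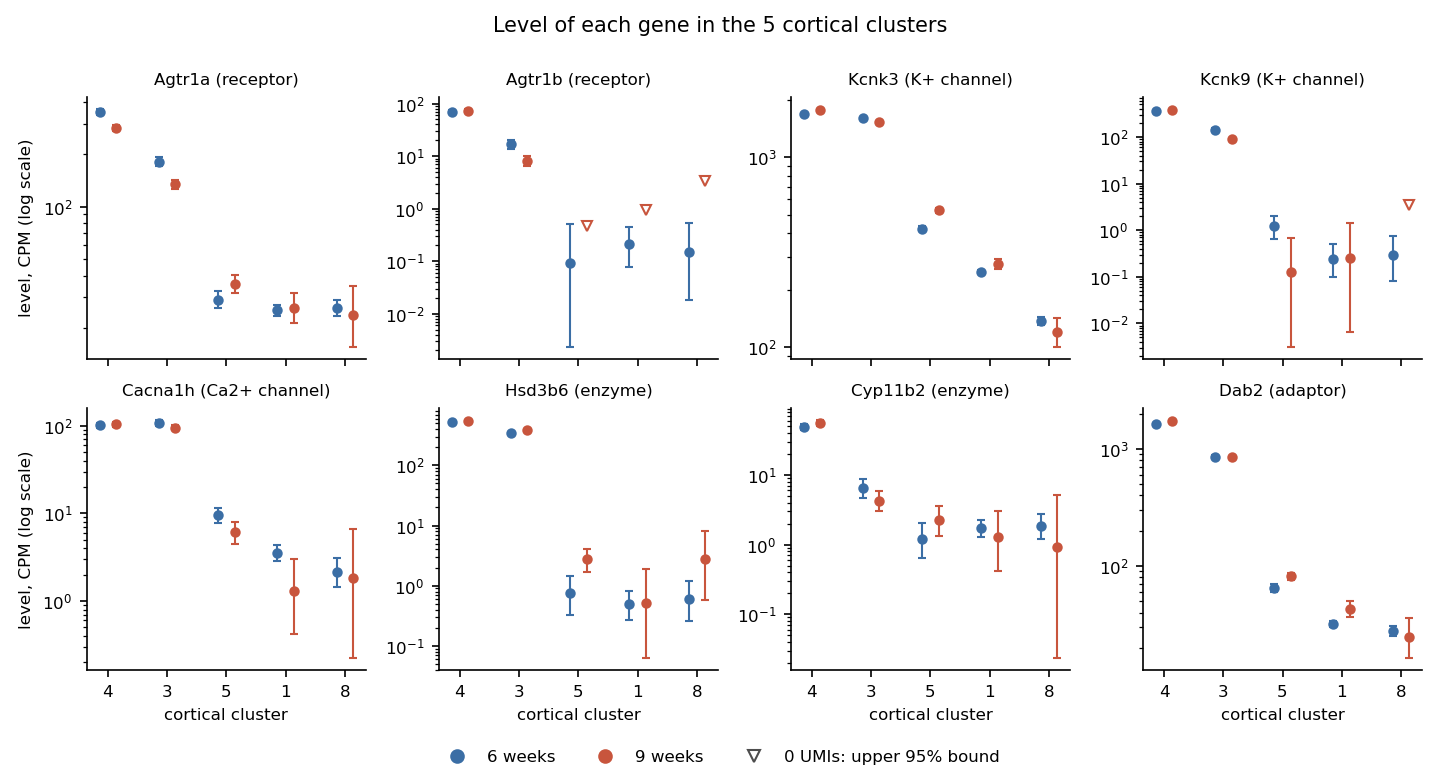
Level of each gene in each cortical cluster with at least 50 barcodes per age (CPM, log axis), 1 library per age, bars exact Poisson 95% intervals, open triangles the upper 95% bound where a gene had 0 UMIs. Clusters 3 and 4 stand above clusters 1, 5 and 8 for all 8 genes at both ages, with overlapping intervals for Cyp11b2 in clusters 3, 5 and 8 at 9 weeks.

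The receptors Agtr1a (chr13:30336441-30382867, plus strand, GRCm38 as for all genes here) and Agtr1b (chr3:20314473-20367177, minus strand) encode the pair of mouse type 1 angiotensin II receptors. In cluster 4, Agtr1a stood at 350 CPM (338 to 364) at 6 weeks and 282 (271 to 293) at 9 weeks. In cluster 3 it stood at 181 and 134 CPM, and in clusters 1, 5 and 8 between 23.9 and 35.9 CPM. Agtr1a therefore was found throughout the cortex, with a graded level from cluster 4 to cluster 3 to the other clusters. Agtr1b was found nearly only in clusters 3 and 4, which held 98.7% of its cortical UMIs at 6 weeks and 99.3% at 9 weeks. Its level in cluster 4 was 69.2 CPM (63.6 to 75.2) at 6 weeks and 73.0 (67.5 to 78.8) at 9 weeks, against 16.9 (13.8 to 20.5) and 8.16 (6.42 to 10.2) in cluster 3. In clusters 1, 5 and 8, Agtr1b was at 0.21 CPM or less at 6 weeks and had 0 UMIs at 9 weeks, which allows up to 0.772, 0.372 and 2.76 CPM (3 counts). The paralogs are near-identical in coding sequence, and reads that fit both could be lost or split by the authors' counting, so the level of either receptor is uncertain to that extent.

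Kcnk3 (chr5:30588170-30625271, plus strand) and Kcnk9 (chr15:72501089-72546340, minus strand) encode the background potassium channels TASK-1 and TASK-3, which set the resting potential of glomerulosa cells and which angiotensin II signalling closes. Kcnk3 stood at 1689 CPM in cluster 4 and 1602 in cluster 3 at 6 weeks, and at 1767 and 1528 at 9 weeks. It was also well above 0 elsewhere, from 120 CPM in cluster 8 at 9 weeks to 527 CPM in cluster 5 at 9 weeks. Kcnk9 was narrower. It stood at 353 CPM (340 to 366) in cluster 4 and 143 (134 to 153) in cluster 3 at 6 weeks, at 386 (374 to 399) and 89.6 (83.6 to 95.9) at 9 weeks, and at 1.21 CPM or less in clusters 1, 5 and 8. Cacna1h (chr17:25374285-25433783, minus strand), the pore subunit of a T-type calcium channel that opens at small depolarisations, was alike in clusters 3 and 4, at 107 and 102 CPM at 6 weeks and 95.2 and 104 at 9 weeks. Its level in clusters 1, 5 and 8 was between 1.29 and 9.47 CPM. Thus 1 of the potassium channels, Kcnk3, extended over the whole cortex, whereas the other, Kcnk9, and Cacna1h were largely held to clusters 3 and 4.

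Hsd3b6 (chr3:98805504-98814443, minus strand), the 3β-hydroxysteroid dehydrogenase isoform found in the mouse glomerulosa, stood at 534 CPM (518 to 550) in cluster 4 and 345 (331 to 360) in cluster 3 at 6 weeks. At 9 weeks it stood at 544 (529 to 560) and 389 (376 to 402), and in clusters 1, 5 and 8 it did not exceed 2.76 CPM at either age. Cyp11b2 (chr15:74851010-74856318, minus strand), aldosterone synthase, lay mainly in cluster 4, which held 75.7% of its cortical UMIs at 6 weeks and 88.4% at 9 weeks, beside 83.2% and 89.1% for Agtr1b. It stood at 49.4 CPM (44.7 to 54.5) there at 6 weeks and 55.9 (51.1 to 61.0) at 9 weeks, against 6.50 (4.65 to 8.86) and 4.25 (3.02 to 5.80) in cluster 3. Cluster 4 was singled out as the cluster with the most Cyp11b2-positive barcodes, so this order describes the data and was not tested. Dab2 (chr15:6299788-6440712, plus strand), an endocytic adaptor and glomerulosa marker, stood at 1644 and 1722 CPM in cluster 4 and at 856 and 850 CPM in cluster 3 at 6 and 9 weeks. In clusters 1, 5 and 8, Dab2 was between 24.8 and 81.5 CPM.

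Cyp11b1 and Cyp11b2 are close paralogs, and misassigned reads would appear as Cyp11b2 where Cyp11b1 is high. In clusters 1, 5 and 8, where Cyp11b1 stood between 2148 and 3666 CPM, Cyp11b2 made up at most 0.07% of the UMIs of both genes, and 2 barcodes in all, both in cluster 5 at 9 weeks, held 2 or more Cyp11b2 UMIs. In cluster 4, Cyp11b2 made up 24.6% of both at 6 weeks (399 of its UMIs beside 1226 of Cyp11b1) and 33.7% at 9 weeks (501 beside 987). There, 92 barcodes at 6 weeks and 119 at 9 weeks held 2 or more Cyp11b2 UMIs. Cyp11b1 was lower in cluster 4 than in any other cortical cluster, at 152 and 110 CPM. In clusters 1, 5 and 8, median unthinned Cyp11b1 counts were higher in Cyp11b2-positive than in other barcodes at both ages. In cluster 5 they were 74 against 53 UMIs at 6 weeks and 90.5 against 58 at 9 weeks (13 and 16 positive barcodes). In cluster 1 they were 50.5 against 48 and 84 against 56 (50 and 5 positive barcodes). In cluster 8 they were 42 against 40 and 40 against 27 (25 and 1 positive barcodes). In cluster 3 they were 1 against 4 and 7.5 against 2, and in cluster 4 0 against 0 at both ages. Depth was not held equal in these medians, and deeper barcodes can hold more UMIs of both genes. Whether reads were misassigned was not tested.

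Over all cortical barcodes, each of the 8 genes was higher at 9 weeks than at 6 weeks. Agtr1a stood at 79.6 CPM (77.4 to 81.7) and 134 (130 to 138), a 1.69-fold difference, and Agtr1b at 10.0 (9.26 to 10.8) and 23.5 (21.8 to 25.2), 2.34-fold. Both receptors had intervals that were apart between the ages. Among the channels, Kcnk3 went from 552 to 1134 CPM, Kcnk9 from 56.2 to 138, and Cacna1h from 25.5 to 59.8, which are 2.05-, 2.46- and 2.34-fold differences. Hsd3b6 went from 96.3 to 272 CPM (2.82-fold), Cyp11b2 from 7.85 (7.19 to 8.55) to 18.1 (16.7 to 19.7; 2.31-fold) and Dab2 from 307 to 775 (2.53-fold). Thus 8 of 8 genes were at least 1.5-fold higher on the log2(CPM + 5) scale, where 7.85% of the 8591 genes measured were that much higher, 4.07% that much lower, and the median log2 ratio was 0.07. The order in size, from Hsd3b6 down to Agtr1a, matched no simple split into receptors, channels and enzymes.

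Within cluster 4, by contrast, 0 of 8 genes differed by 1.5-fold, where 1.18% of 8335 genes were that much higher at 9 weeks and 0.444% that much lower. The log2 ratios of 9 over 6 weeks lay between 0.03 and 0.16 for all but Agtr1a, which was lower at 9 weeks by a log2 ratio of -0.31 with intervals apart. Within cluster 3, 0 of 8 were 1.5-fold higher and 2 of 8 were lower, Agtr1b (log2 ratio -0.74) and Kcnk9 (-0.65), where 1.21% and 0.922% of 8680 genes were that much higher and lower. Agtr1a was lower in cluster 3 too, from 181 (171 to 192) to 134 (127 to 142) CPM, short of the threshold. Each cortical cluster was also given the same weight at both ages, the mean over the ages of its share of UMIs. With these weights none of the 8 genes reached 1.5-fold, and 4 had a log2 ratio below 0: Agtr1a -0.27, Cacna1h -0.097, Agtr1b -0.067 and Kcnk9 -0.054. The higher levels over the whole cortex at 9 weeks thus went along with the larger share of clusters 3 and 4 among cortical barcodes, while no gene was 1.5-fold higher inside either cluster. Whether that share reflects the gland, dissociation or the sort cannot be told apart with 1 library per age.

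Markers of other cells were low in the cortical barcodes but differed between ages. The 7 macrophage markers summed to 13.7 CPM at 6 weeks and 75.0 at 9 weeks in cortical barcodes, and to 32.7 and 165 in cluster 3 and 13.6 and 36.4 in cluster 4, with none of the 7 at 0 in cortical barcodes at either age; macrophage-like barcodes had 21024 and 22468. The 6 endothelial markers summed to 142 and 81.1 CPM in cluster 3 and to 15.7 and 23.5 in cluster 4. Dab2 was the 1 gene of the 8 with high levels in such cells, at 491 CPM (474 to 509) in macrophage-like barcodes at 6 weeks and 434 (424 to 444) at 9 weeks, and 164 and 172 in endothelial-like barcodes. It also stood at 139 and 134 CPM in plasmacytoid dendritic-like barcodes and at 27.0 and 44.8 in monocyte-like ones. The plasmacytoid dendritic-like cluster was led by Cd209a, a marker on the list of the dendritic class, beside Siglech, so its name is uncertain. Dab2 in cluster 4, at 1644 and 1722 CPM, thus stood above its level in macrophage-like barcodes. The other 7 genes stood at 29.3 CPM or less in the 8 other named classes with at least 50 barcodes at each age, leaving aside the plasma cell-like cluster 23 (67 and 85 barcodes). Smaller classes and unnamed clusters were not compared. Cluster 23 was itself led by the cortical genes Ecrg4 and Ly6d beside plasma cell markers, held Kcnk3 at 658 and 473 CPM, Agtr1a at 148 and 87.7 CPM and Cyp11b2 at 33.4 and 25.1 CPM, and was left out of the cortical barcodes.

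**Figure D2:**
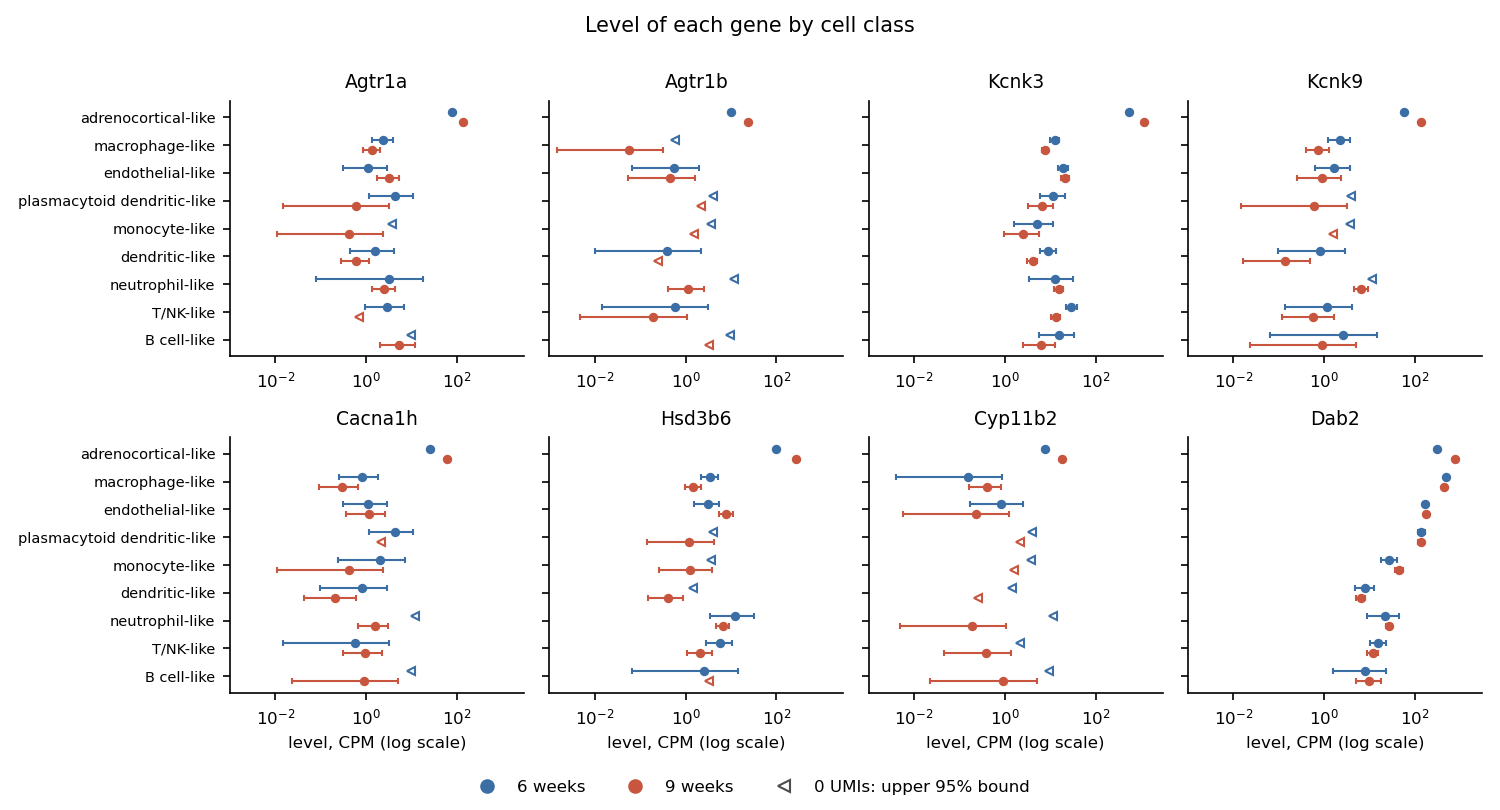
Level of each gene in cortical barcodes and the 8 other named classes with at least 50 barcodes at each age, without the plasma cell-like one (CPM, log axis), 1 library per age, bars exact Poisson 95% intervals, open triangles the upper 95% bound at 0 UMIs. Dab2 is the 1 gene with macrophage-like (491 and 434 CPM), endothelial-like (164 and 172 CPM) and plasmacytoid dendritic-like (139 and 134 CPM) levels of the order of its cortical ones (307 and 775 CPM).

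To compare how many barcodes held each gene, every cortical barcode was thinned at random to 5000 UMIs, which left out 122 barcodes at 6 weeks and 102 at 9 weeks (4166 and 1996 remained). Agtr1a was found in 25.3% of them at 6 weeks and 43.6% at 9 weeks (unthinned 46.0% and 67.3%), and Agtr1b in 3.79% and 9.77% (8.09% and 17.5%). Kcnk3 was found in 66.8% and 89.2% (unthinned 81.6% and 95.8%), Kcnk9 in 13.3% and 32.0% (17.2% and 41.2%) and Cacna1h in 10.8% and 24.2% (21.6% and 44.7%). Hsd3b6 was found in 12.7% and 30.1% (unthinned 15.0% and 33.8%), Dab2 in 34.0% and 70.0% (52.9% and 83.1%) and Cyp11b2 in 2.78% (2.31 to 3.33) and 6.11% (5.10 to 7.25) (6.65% and 12.1%). Each of the 8 genes was thus found in a larger share of cortical barcodes at 9 weeks, with and without thinning. T/NK-like barcodes, a lymphocyte class, were taken as a background and thinned to 2000 UMIs (339 and 1017 barcodes, class medians 3542 and 3966 UMIs). The shares there were at most 2.06% for Dab2, 1.67% for Kcnk3 and 0.59% for the other genes. For Cyp11b2 the share was 0 at both ages, which allows 0.885% and 0.295%. Cortical barcodes at that depth held Agtr1b in 1.94% and 4.67%, Cyp11b2 in 1.54% and 3.31%, Hsd3b6 in 9.26% and 24.0%, and Kcnk3 in 48.3% and 76.9%, all above that background.

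Inside cluster 4 the thinned shares were alike at both ages for most of the genes. Cyp11b2 was found in 15.8% (12.8 to 19.1) of 539 barcodes at 6 weeks and 17.2% (14.3 to 20.4) of 617 at 9 weeks, so most cluster 4 barcodes held no Cyp11b2 UMI at this depth. Kcnk3 and Dab2 were found in at least 99.8% of these barcodes, Kcnk9 in 75.1% and 77.6%, Agtr1a in 81.1% and 73.7%, Hsd3b6 in 60.1% and 53.3%, Cacna1h in 39.1% and 37.4% and Agtr1b in 23.9% and 27.9%. In cluster 3, Cacna1h (38.8% and 35.8%) had shares whose intervals overlapped those of cluster 4. Agtr1a (54.2% and 46.6%), Agtr1b (6.32% and 3.24%), Cyp11b2 (1.81% and 1.70%), Kcnk9 (31.6% and 23.9%) and Hsd3b6 (44.5% and 40.6%) were found in smaller shares there, with intervals apart from those of cluster 4 at both ages. Kcnk3 (99.5% and 99.4%) and Dab2 (92.1% and 93.7%) were in nearly all barcodes of both clusters, which left their shares little room to differ, and by level Dab2 in cluster 4 was about 2 times that in cluster 3.

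The number of the 8 genes found per barcode split the cortex in the same way. At 5000 UMIs, 974 of 4166 cortical barcodes at 6 weeks (23.4%, 22.1 to 24.7) and 1170 of 1996 at 9 weeks (58.6%, 56.4 to 60.8) held 3 or more of the genes, and the median went from 1 to 3. At least 7 of the genes were found in 35 barcodes (0.84%) at 6 weeks and 37 (1.85%) at 9 weeks. In cluster 4, 99.8% and 99.0% of barcodes held 3 or more, 67.7% and 63.9% held 5 or more, and the median was 5 at both ages. In cluster 3 the median was 4 and 3, with 5 or more in 23.5% and 16.8%. In clusters 1, 5 and 8 between 0% and 7.56% of barcodes held 3 or more, and 0 held 5 or more, which allows from 0.170% (cluster 1 at 6 weeks) to 5.17% (cluster 8 at 9 weeks). Barcodes with most of the machinery therefore lay in clusters 3 and 4 at both ages.

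**Figure D3:**
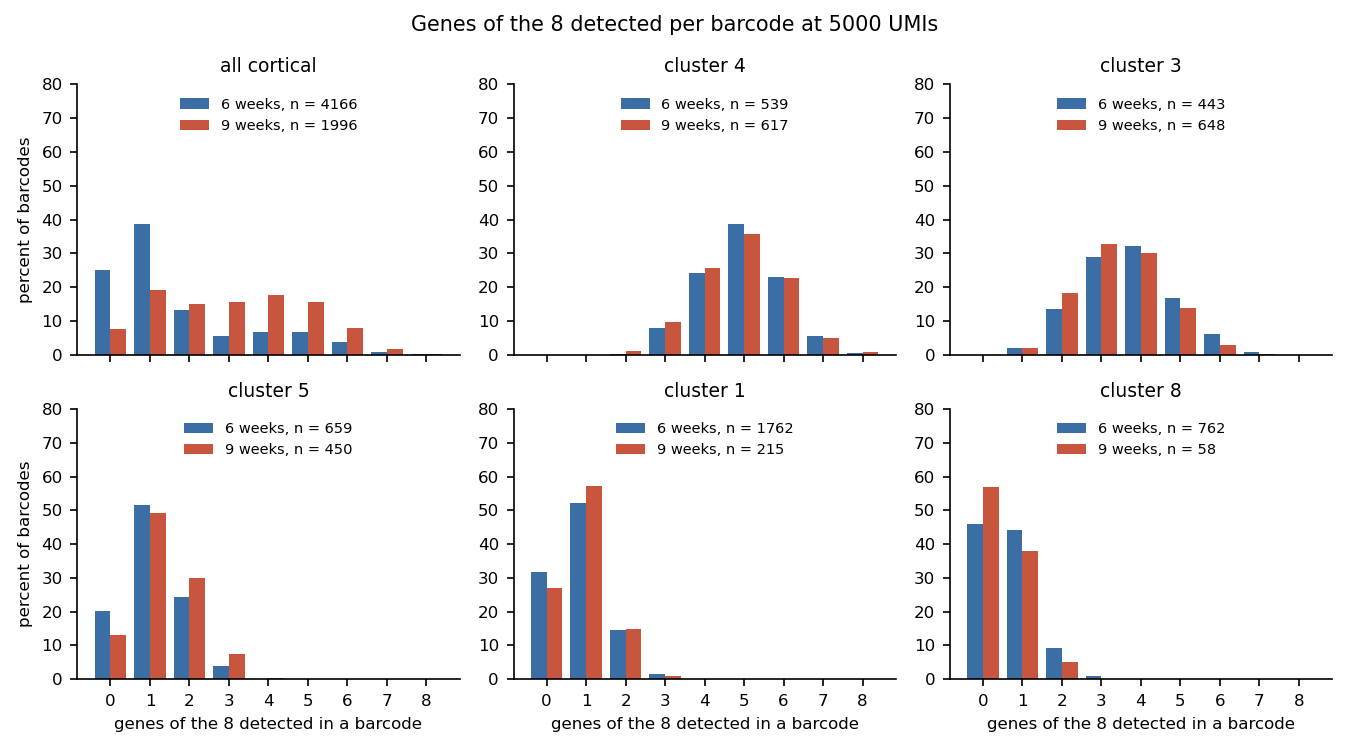
Percent of barcodes (y axis) by the number of the 8 genes with at least 1 UMI at 5000 UMIs (x axis), in all cortical barcodes and in cortical clusters, at both ages. Over the whole cortex the median is 1 gene at 6 weeks and 3 at 9 weeks, while in cluster 4 it is 5 at both ages.

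Both receptors were found in 129 barcodes at 6 weeks and 149 at 9 weeks, Agtr1a alone in 925 and 721, and Agtr1b alone in 29 and 46, so most Agtr1b-positive barcodes also held Agtr1a. Kcnk3 and Kcnk9 were found together in 553 and 637 barcodes, Kcnk3 alone in 2229 and 1144, and Kcnk9 alone in 3 and 1. Nearly every Kcnk9-positive barcode thus held Kcnk3, which was itself in most cortical barcodes. A receptor, both potassium channels and Cacna1h occurred together in 172 barcodes at 6 weeks (4.13%) and 180 at 9 weeks (9.02%), and in cluster 4 in 134 of 539 (24.9%) and 146 of 617 (23.7%). Of the 116 and 122 Cyp11b2-positive barcodes, 78 and 96 held a receptor, 104 and 120 held Kcnk3 or Kcnk9, and 32 and 33 held a receptor, Kcnk9 and Hsd3b6. Over all cortical barcodes, 26.0% and 45.9% held a receptor, and 66.8% and 89.2% held Kcnk3. Cyp11b2 without any of the other 7 genes was found in 11 barcodes at 6 weeks and 1 at 9 weeks. None of them was in cluster 4, where Kcnk3 was in 100% and 99.8% of barcodes, which left almost no room for one.

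Pairs of the genes shared barcodes more often than the product of their shares gives. A pair was given where that product came to at least 5 barcodes, which left 27 of 28 pairs at 6 weeks and 28 at 9 weeks, and the ratio of observed barcodes to the product was above 1 in all of them. At 6 weeks, 20 of 27 pairs reached a ratio of 1.5 (median 2.77, range 1.29 to 5.31), where 10.8% of pairs of these genes with any other gene did so. At 9 weeks, 8 of 28 did (median 1.41, range 1.09 to 3.44), where 3.75% of such pairs did. The ratio cannot exceed 1 over the share of the commoner gene, a ceiling under 1.5 for 7 pairs at 6 weeks and 13 at 9 weeks, so ratios at the ages do not compare directly. The median odds ratio over pairs was 10.7 and 6.18.

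Agtr1b with Kcnk9 was the pair with the highest ratio at 6 weeks. Kcnk9 was found in 70.9% of Agtr1b-positive and 11.1% of Agtr1b-negative barcodes at 6 weeks, and in 73.8% and 27.4% at 9 weeks, with ratios of 5.31 and 2.31. Kcnk9 with Cyp11b2 had ratios of 4.65 and 2.33, and Agtr1b with Hsd3b6 of 4.48 and 1.82. At 9 weeks the highest ratio was that of Agtr1b with Cyp11b2, 3.44 from 41 barcodes with both, and at 6 weeks 30 barcodes held both, with a product under 5. The lowest ratios were those of Agtr1a with Kcnk3, 1.29 and 1.09. Cyp11b1, the fasciculata enzyme, went the other way over all cortical barcodes, at ratios of 0.43 and 0.37 with Cyp11b2. It was held by 43 of 116 Cyp11b2-positive barcodes at 6 weeks and 27 of 122 at 9 weeks. Within cluster 4, without thinning, 79 of 172 Cyp11b2-positive barcodes at 6 weeks and 68 of 205 at 9 weeks held Cyp11b1. Of all cluster 4 barcodes, 44.9% and 35.0% did, so the low ratios were not seen inside that cluster.

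When the product of the shares was formed inside each cortical cluster and summed, 0 of 28 pairs reached 1.5 at either age (median ratio 1.01 at both, range 0.706 to 1.44 at 6 weeks and 0.787 to 1.35 at 9 weeks), where 0.621% and 0.628% of pairs with other genes did. That count was largely set by the ceiling, which was under 1.5 for 22 of 28 pairs in cluster 4 and 13 in cluster 3 at both ages. The odds ratio has no such ceiling, and its median over pairs was 0.97 at 6 weeks and 1.08 at 9 weeks in cluster 4, and 1.40 and 1.27 in cluster 3. In cluster 4 it ranged over pairs from 0.188 to 359 and from 0.199 to 137. For pairs with Kcnk3 or Dab2, found in at least 99.8% of these barcodes, it hung on few or no barcodes without the gene. The median over all 28 pairs therefore cannot show whether those pairs went together. By the ratio to the product, the cluster 4 pair furthest above 1 was Agtr1b with Cyp11b2. Cyp11b2 was found in 21.7% (14.9 to 29.8) of Agtr1b-positive and 13.9% (10.7 to 17.6) of Agtr1b-negative cluster 4 barcodes at 6 weeks, and in 22.1% (16.1 to 29.0) and 15.3% (12.1 to 19.0) at 9 weeks. The ratios were 1.38 and 1.29, and the intervals overlapped at both ages. Agtr1b with Cacna1h was below 1 at both ages, at 0.81 and 0.79, and Hsd3b6 with Cyp11b2 at 0.90 and 0.90. In cluster 3, Agtr1b with Kcnk9 stood at 2.03 (18 barcodes with both) and 1.59 (8 with both). Conditional shares had intervals apart in 27 of 27 and 26 of 28 pairs over the cortex, in 2 of 23 and 1 of 24 in cluster 3, and in 0 of 28 and 0 of 28 in cluster 4, which holds fewer barcodes.

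**Figure D4:**
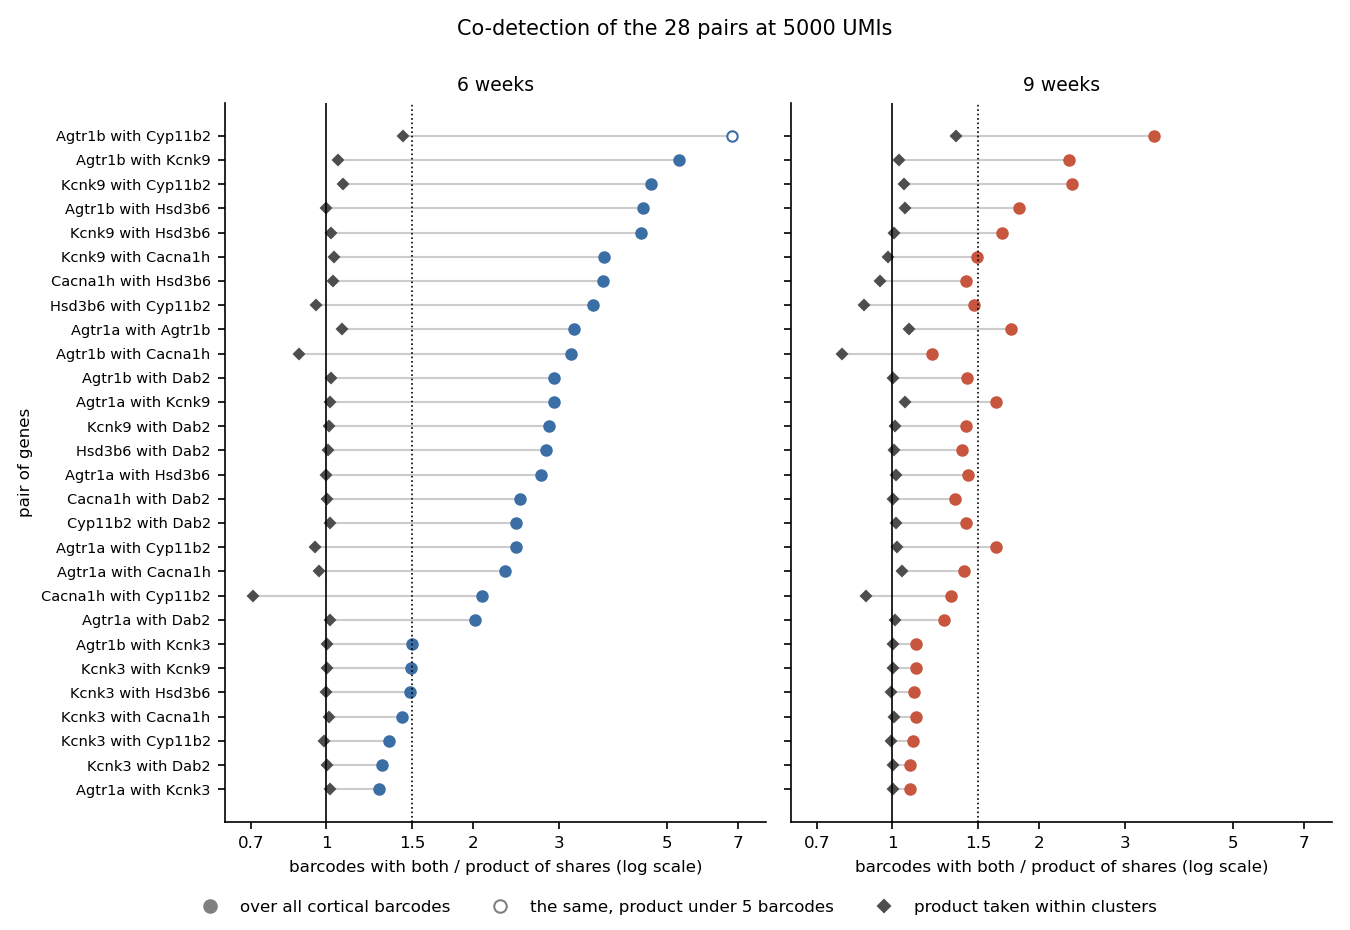
Ratio of barcodes with both genes to the number given by the product of the shares, for each pair of the 8 genes at each age, over all cortical barcodes (circles, open where the product was under 5 barcodes) and with the product formed within clusters (diamonds), on a log axis with lines at 1 and 1.5. Over all cortical barcodes the ratios lie above 1 (closed circles up to 5.31 at 6 weeks and 3.44 at 9 weeks), and within clusters they lie around 1 (0.706 to 1.44 and 0.787 to 1.35).

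The genes differed in how evenly their UMIs were spread over cluster 4 barcodes. Hsd3b6 had a mean of 7.90 UMIs per barcode at 6 weeks and 7.79 at 9 weeks, yet 32.8% (28.9 to 36.9) and 41.1% (37.2 to 45.0) of barcodes held none, where a Poisson distribution with the same level and each barcode's depth gives 0.720% and 0.516%. Its variance was 10.7 and 13.9 times its mean, and positive barcodes had a median of 9 and 10 UMIs and up to 47 and 53. Hsd3b6 thus had a large group of barcodes at 0 beside a broad spread of positive ones. Cacna1h had 26.9% (23.2 to 30.9) and 29.6% (26.0 to 33.3) at 0 against 24.7% and 24.8% for a Poisson spread. Its interval thus held the Poisson value at 6 weeks and lay above it at 9 weeks. Its variance was 1.31 and 1.34 times its mean. Kcnk9 had 9.16% and 7.51% at 0 against 1.79% and 1.34%. The variance was 2.04 and 1.98 times the mean for Agtr1a, 5.92 and 4.95 times for Kcnk3 and 6.30 and 5.82 times for Dab2. The ratio of variance to mean can grow with the mean, so by itself it does not rank these genes by evenness. Hsd3b6 had a higher ratio than Kcnk3 and Dab2 at a lower mean. Cyp11b2 was absent from 68.5% and 67.3% of unthinned barcodes against 49.5% and 46.1%, and its highest count in a barcode was 12 and 10 UMIs. Its variance was 3.14 and 3.09 times its mean, a higher ratio than for Cacna1h and Agtr1a, although its mean was the lowest of the 8 genes. In cluster 3, Hsd3b6 was again absent from more barcodes (50.7% and 54.6%) than a Poisson spread gives (8.23% and 4.67%).

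**Figure D5:**
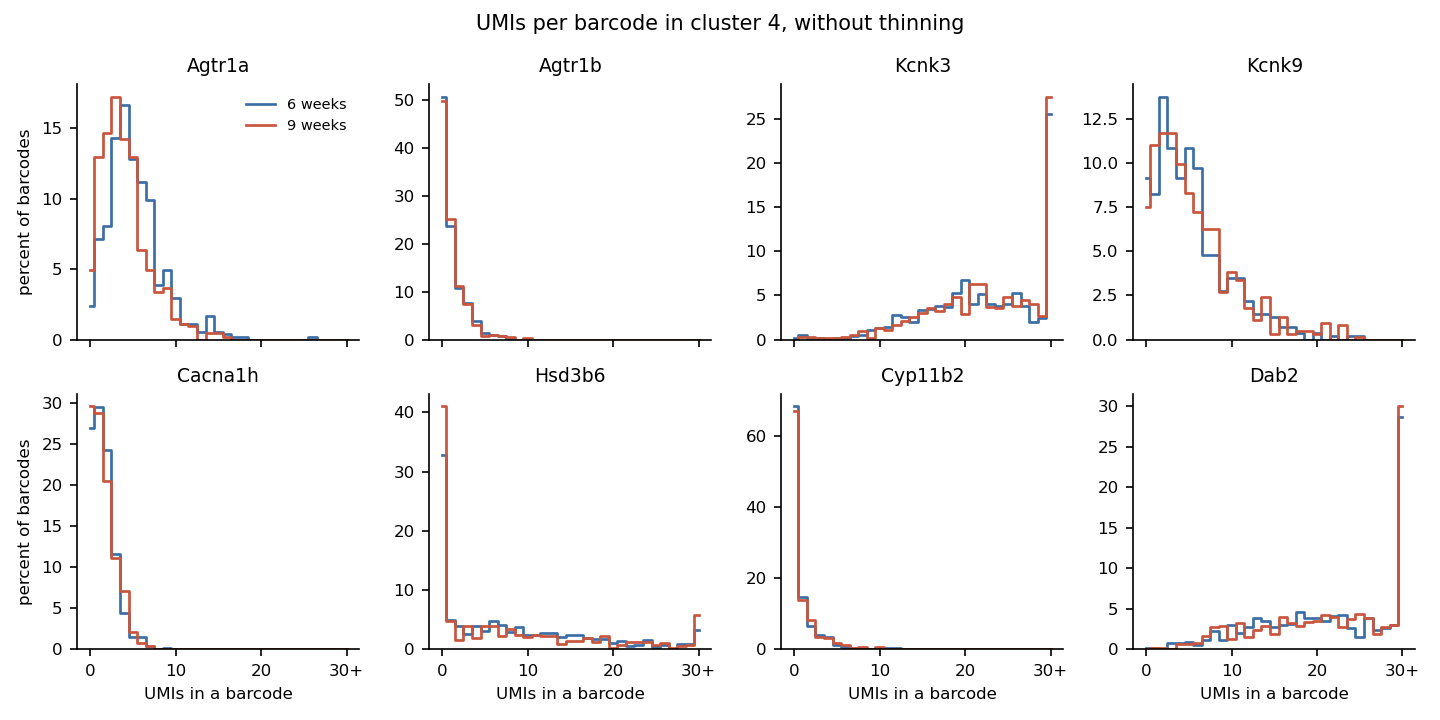
Percent of cluster 4 barcodes by UMIs per barcode for each gene, unthinned, at both ages, with 30 or more UMIs drawn as 1 class. Hsd3b6 has a peak at 0 (32.8% and 41.1% of barcodes) and a broad spread around a median of 9 and 10 UMIs in positive barcodes, while Cyp11b2 is at 0 in 68.5% and 67.3%.

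Within cluster 4, Hsd3b6-positive barcodes were compared with negative ones at 5000 UMIs. For the other 7 genes the log2 ratios lay between -0.45 and 0.33, so 0 of 7 were 1.5-fold apart. Over all genes, 2.87% of 8403 at 6 weeks and 1.89% of 8460 at 9 weeks were that much higher, and 2.69% and 2.38% lower. With shares that small, a count of 0 of 7 does not set these genes apart from others. Cyp11b2 was slightly lower in Hsd3b6-positive barcodes, with log2 ratios of -0.22 and -0.45. Hsd3b1, the paralog active in the whole cortex, stood at 2691 CPM in Hsd3b6-positive and 3282 in negative barcodes at 6 weeks, and at 2483 and 3195 at 9 weeks. Reads that could be assigned to either paralog make the levels of both uncertain.

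Cyp11b2-positive cortical barcodes were rich in the receptors and channels. Over the whole cortex at 5000 UMIs, 7 of the 7 other genes were 1.5-fold higher in the 116 positive than in the 4050 negative barcodes at 6 weeks, where 13.6% of 8766 genes were higher and 14.5% lower. At 9 weeks (122 and 1874 barcodes) 5 of 7 were, where 8.93% of 8756 genes were higher and 11.7% lower. Agtr1b had the largest log2 ratios, 2.52 and 1.93, followed by Kcnk9 (2.34 and 1.31), Dab2 (2.24 and 1.16), Hsd3b6 (1.87 and 0.66) and Agtr1a (1.71 and 1.06). Kcnk3 (1.24 and 0.56) and Cacna1h (0.86 and 0.21) stayed under 1.5-fold at 9 weeks. The 10 genes with the largest ratios at both ages were Eno3, Dkk3, Cpb1, Procr, Tubb2a, Vsnl1, Nr4a1, Agtr1b, Kcnq3 and Tmem158. Vsnl1, a calcium sensor of the glomerulosa, had log2 ratios of 2.93 and 1.97, and Nr4a1, an immediate-early nuclear receptor known to act on the human aldosterone synthase gene, stood at 72.4 against 12.4 CPM and at 469 against 118.

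Within cluster 4, where 85 barcodes at 6 weeks and 106 at 9 weeks were Cyp11b2-positive, 0 of 7 of the other genes were 1.5-fold apart on the log2(CPM + 5) scale, although without the added 5 CPM Agtr1b slightly exceeded that fold at both ages and Cacna1h at 6 weeks. At 6 weeks 6.33% of 8454 genes were that much higher and 8.98% lower there, and at 9 weeks 5.44% and 6.17% of 8531. Agtr1b was higher in positive barcodes, with 91.8 against 59.9 CPM at 6 weeks and 109 against 72.4 at 9 weeks (log2 ratios 0.58 and 0.56), while Cacna1h was lower in positive barcodes (-0.56 and -0.38). Fdx1, the ferredoxin that passes electrons to mitochondrial steroid hydroxylases such as aldosterone synthase, was 2 times as high in positive barcodes at both ages, at 3993 against 1957 CPM and at 6145 against 2924. Of the 9 listed genes of the steroid path, Fdx1 was 1.5-fold higher at both ages, and Cyp11b1 was lower at 6 weeks (log2 ratio -1.27). Of the 8 measured genes of the outer cortex list, which holds Vsnl1, 0 were higher or lower at either age. The list for Gq and calcium signalling holds Nr4a1. Of its measured genes, 2 of 23 were higher and 2 lower at 6 weeks, and 0 of 24 either way at 9 weeks. These contrasts compare barcodes of 1 library and have no replicate check.

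Other genes of the pathway were taken from lists of named genes, in which only those with 10 CPM in 1 library and 10 UMIs over both were measured. Of 22 genes for membrane potential and calcium entry, 12 were measured over all cortical barcodes, 8 were 1.5-fold higher and 1 lower at 9 weeks (median log2 ratio 0.80), against 7.85% higher and 4.07% lower and a median of 0.07 over all genes. The higher ones included the sodium pump subunit Atp1b1 (19.2 to 51.3 CPM), the calcium pump Atp2b3 (23.9 to 61.6), the large-conductance potassium channel Kcnma1 (38.6 to 97.0) and the L-type calcium channel subunit Cacna1c (31.1 to 66.4), and the lower one was the chloride channel Clcn2 (56.4 to 20.3). In cluster 4, 2 of 13 were higher and 0 lower (median log2 ratio 0.23), against 1.18% and 0.444% of all genes and a median of 0.05. They were Kcnk5 (4.58 to 14.5 CPM) and Cacna1d (11.9 to 20.5), both near the lower limit of measurement. Kcnj5, a potassium channel mutated in human aldosterone-producing adenomas, was at 0.16 and 0.03 CPM in cortical barcodes.

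Of 28 genes for Gq and calcium signalling, 24 were measured, 6 were 1.5-fold higher and 0 lower at 9 weeks over all cortical barcodes (median log2 ratio 0.16), again against 7.85% and 4.07% of all genes. Within cluster 4, 3 of 24 were higher and 0 lower (median 0.14), against 1.18% and 0.444% of all genes. Nr4a1 went from 59.2 to 379 CPM and Nr4a2, its relative, from 30.5 to 171, and Rgs2, an inhibitor of Gq signalling, from 171 to 265. These were larger differences than for any of the 8 genes in cluster 4, and Cyp11b2 stood at 49.4 and 55.9 CPM in the same barcodes. Nr4a1 and Nr4a2 are immediate-early genes that also respond to tissue handling, and the part of handling was not tested. Of the 9 genes of the steroid path, 1 was higher over the cortex at 9 weeks, Cyp11a1 (1094 to 2422 CPM), and 2 were lower, Cyp21a1 and Cyp11b1, while in cluster 4 none of the list passed 1.5-fold. Of the outer cortex list 6 of 8 measured genes were higher and 2 lower over the cortex (median log2 ratio 0.68) and 0 either way in cluster 4, and of the fasciculata list 3 of 10 were higher and 5 lower (-0.56), both against the same 7.85% and 4.07% of all genes. Of 11 renin-angiotensin genes, 3 were measured and 0 were higher or lower, and renin (Ren1, 0.13 and 0.22 CPM) and angiotensinogen (Agt, 0.04 and 0.06 CPM) were nearly absent from cortical barcodes.

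The pattern of each gene over the 10 sums of 5 clusters and 2 ages was compared with 9046 other genes by Pearson's r of log2(CPM + 5), as a description of sums that share libraries, depth and the clustering. Cyp11b2 was most like Kcnq3 (0.995), a potassium channel subunit, Nsf (0.995), Slc2a4 (0.992), Ctsf and Hpcal4, and Agtr1b, at rank 20 (0.968), was the nearest of the other 7 genes to it. Agtr1b was most like Elovl7, Pcdh19 and Lrrc55, and Agtr1a most like Rundc3a, Pitpnm1 and Mboat2. Kcnk9 was most like Mest, Ecrg4 and Ntn4, Kcnk3 most like Ssbp4, Ptn and Hspb1, and Cacna1h most like Mapkapk2, Phlda1 and Tle6. Hsd3b6 was most like Prickle1, Aldh1a2 and Ctxn3, with the potassium channel Kcnk1 also among its 5 nearest, and Dab2 most like Ptpn13, Auts2 and Ptges3l. Among the 8 genes, Agtr1a with Kcnk9 had an r of 0.994, and Cyp11b2 was least like Kcnk3 (0.726) and Cacna1h (0.755).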

How the data were processed

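Per the labels' protocols, dissociated adrenal cells that took up a DNA dye and excluded DAPI were sorted and captured with Chromium 3′ v3.1 chemistry. The authors deposited raw UMI counts per gene and barcode. Cell Ranger 6.0.1, Seurat and mm10 are named, per the submitters' processing notes. No annotation release is given in the sources used. The 6-week matrix held 8880 barcodes and 97001752 UMIs and the 9-week matrix 10812 and 99728879. Rows of 1 symbol were summed (32285 to 32245). Barcodes with under 500 genes (161 and 221) and over 25% mitochondrial UMIs (111 and 64) were removed, then Scrublet doublets called in scanpy 1.11.5 at 0.8% per 1000 cells (488, 5.67%, and 584, 5.55%, with 6.89% and 8.42% expected). Both libraries were clustered together without integration, from 2000 variable genes without the 8 genes, 30 components and 20 neighbours at Leiden resolution 1 (leidenalg 0.10.2, igraph 0.11.9). A cluster took the best-scoring of 18 marker classes where at least 3 markers were in 10% of its cells and 2 times above the median cluster, and no other class reached 0.5 of its score.

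Summed UMIs were scaled to CPM, ratios used a pseudocount of 5 CPM, which understates ratios of low genes, and 1.5-fold was counted as higher or lower. With 1 library per age no p-value was computed. Scripts ran in Python 3.11.15 with pandas 2.3.3, scipy 1.17.1 and numpy 2.4.6, and were tested on simulated data. Gene coordinates come from GENCODE M21 on GRCm38 (mm10). The genes, lists and markers were chosen with earlier results of these data known. Named beside the 8 genes were list genes past 1.5-fold, the 5 most alike genes per gene and the 10 genes highest in Cyp11b2-positive barcodes. Named outside this rule after their values were seen were list genes under the measured minimum, Hsd3b1 and the leading genes of clusters. Alternatives changed the doublet, gene and cluster settings, the cortical definition, the thinning, the scaling and the pseudocount.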

Additional observations from a re-analysis of the deposited data

Results flagged for a closer look

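Over all cortical barcodes the 8 genes were higher at 9 weeks, and in some other classes a few of them were lower, by over 1.5-fold on the log2(CPM + 5) scale. In the plasma cell-like cluster, which also holds cortical genes, the log2 ratio of 9 over 6 weeks was -0.73 for Agtr1a, -0.84 for Agtr1b, -1.59 for Hsd3b6 and -0.61 for Dab2. For Kcnk3 it was -0.91 in T/NK-like barcodes, from 29.3 CPM (21.8 to 38.5, 51 UMIs) to 13.2 (10.3 to 16.7, 69 UMIs). Those UMIs lay in only 13 of 393 barcodes at 6 weeks and 31 of 1095 at 9 weeks. The shares of barcodes with Kcnk3, 3.31% (1.77 to 5.59) and 2.83% (1.93 to 3.99), overlapped, so the difference in CPM rests on a few barcodes. For Kcnk3 in B cell-like barcodes it was -0.86, from 6 UMIs at 6 weeks and 7 at 9 weeks, and for Hsd3b6 in neutrophil-like barcodes it was -0.59, from 4 UMIs and 35. The intervals of these last 2 overlapped between the ages. These opposite directions rest on 1 library per age, and the difference between classes was not tested.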

How the results depend on the processing

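No paired analysis was possible because each age has 1 library, with no replicate to pair or leave out. All 8 genes stayed 1.5-fold higher at 9 weeks under every alternative except 2. These were trimmed mean scaling (7 genes, Agtr1a at a log2 ratio of 0.54) and cluster weights held the same at both ages (0 genes). With such weights, the log2 ratios were -0.27 for Agtr1a, -0.067 for Agtr1b, -0.054 for Kcnk9 and -0.097 for Cacna1h. They were 0.07 for Cyp11b2, 0.09 for Hsd3b6, 0.06 for Dab2 and 0.05 for Kcnk3. The share of cortical barcodes with Cyp11b2 at 6 and 9 weeks was 1.54% and 3.31% at 2000 UMIs, 4.81% and 10.5% at 10000, 6.65% and 12.1% without thinning, and 0.648% and 1.45% from 2 UMIs. The share with 3 or more of the genes was 17.3% and 43.8%, 26.4% and 65.2%, 35.5% and 72.0%, and 16.6% and 42.0% at these settings, and 18.2% and 48.8% with cortical barcodes chosen by marker UMIs. It was higher at 9 weeks under each. Pairs at 1.5 times the product numbered 0 and 0 within clusters, and at 9 weeks 16 with barcodes chosen by marker UMIs and 18 from 2 UMIs. Another 2 alternatives were chosen after seeing the data. Adding the plasma cell-like cluster gave 8 genes, shares with Cyp11b2 of 2.93% and 6.83% and with 3 or more genes of 23.5% and 57.0%, and 23 and 11 pairs. Leaving out the barcode sequences shared by both libraries gave 8 genes, 2.70% and 6.74%, 23.0% and 58.1%, and 23 and 8 pairs. Depth limits what a barcode without a Cyp11b2 UMI shows, since its shares followed the depth chosen.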
